A study of Mus musculus with 12 samples.

Results

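The MS4A genes of macrophages were followed in alveolar macrophages after repeated ozone. The set was chosen by gene symbol, with earlier results of these data known. It holds 8 genes, Ms4a3, Ms4a4a, Ms4a4c, Ms4a6b, Ms4a6c, Ms4a6d, Ms4a7 and Ms4a8a, of the 55291 symbols in the deposited table. The macrophages came from lungs of female C57BL6/NJ mice that were 8 to 11 weeks old and were isolated by flow sorting. The ozone group had breathed 0.8 ppm ozone and the control group filtered air, in both cases for 4 h per day on 4 days in a row, and lungs were taken 3 days later. There were 6 mice per group, each a separate animal, and each of 2 flow-sort batches held 3 from either group. No transgene or mutant allele was named for either group.

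MS4A proteins cross the membrane several times and resemble tetraspanins in outline. The family includes CD20 (Ms4a1) of B cells and the beta chain of the high-affinity IgE receptor (Ms4a2) of mast cells and basophils. Several members are made mainly by monocytes and macrophages, where MS4A4A associates with the beta-glucan receptor Dectin-1 and is induced by IL-4 and glucocorticoids. MS4A3 is best known from granulocyte-monocyte progenitors, where it binds the phosphatase encoded by Cdkn3, which acts on the kinase CDK2. For many of the others the function is poorly known.

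The deposited log2-scale values are variance-stabilized and centred, so that the filtered-air group averages 0 in every gene. They carry no abundance, so levels cannot be ranked between genes, and a difference is compressed in a gene with few reads. The total number of reads per mouse is not kept in these values, so the depth is unknown. RNA integrity numbers lay between 9.2 and 9.7 after ozone and between 8.9 and 9.7 in filtered air. All 8 genes had a value above the lowest shared value in all 12 mice and entered the fit with 19633 genes. The 15 listed markers of resident alveolar macrophages, such as Siglecf, Marco, Car4 and Pparg, were all retained as well, while detection alone does not show their level. Filtered-air mouse 4 had the highest mean of all 12 mice in the lists for monocytes (0.34), B cells (0.33), lung epithelium (0.26), interstitial macrophages (0.25) and neutrophils (0.23), and the lowest for resident alveolar macrophages (-0.073). Without it, Ms4a6c and Ms4a8a kept their calls and the other 6 members again did not pass.

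After ozone, Ms4a6c and Ms4a8a rose, and the other 6 genes did not pass the test. The rise of Ms4a8a was near the threshold, so that 1 of the 8 genes was called in 9 of the 12 fits that left out a mouse and under 5 other settings, and 0 in flow-sort batch 2 alone. These 2 of 8 genes, 25%, compare with 4.25% of all genes tested that had an adjusted p under 0.05 in limma in either direction with 2.41% that had it and were higher, and with 1.84% that had it and were lower. The median difference of the 8 genes was 0.062, against -0.0033 over all genes tested, and it ran from 0.040 to 0.084 when single mice were left out, lowest without filtered-air mouse 4. The difference was above 0 in 5 of the 8, against 48% of all genes. In none of the 8 were the groups fully apart, a pattern that held for 3.53% of all genes.

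**Figure D1:**
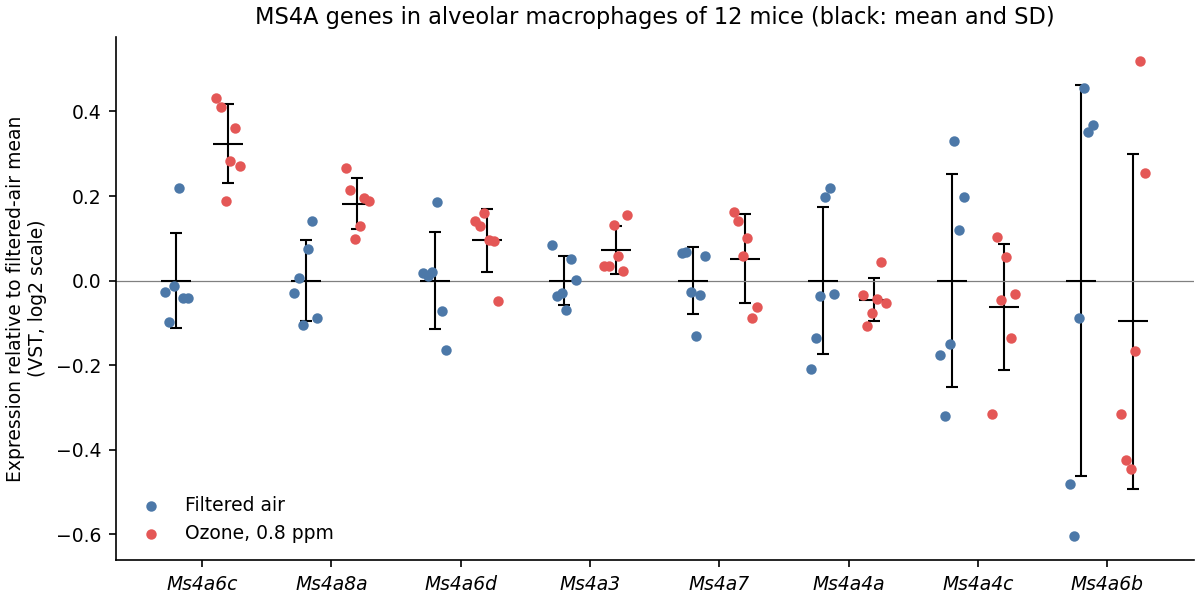
Expression of the 8 MS4A genes in each mouse, as variance-stabilized values on a log2 scale relative to the filtered-air mean (points, 6 mice per group; black, mean and SD). In Ms4a6c 5 of 6 ozone mice lie above all filtered-air mice, while Ms4a6b spreads from -0.60 to 0.52 across both groups.

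All 8 genes lie in the MS4A cluster of chromosome 19, in the GRCm38 assembly (mm10) with GENCODE M21 gene models. Ms4a8a (chr19:11067471-11081102) and Ms4a7 (chr19:11321039-11336146) are on the minus strand. Ms4a4a (chr19:11375523-11392790), Ms4a4c (chr19:11404770-11427246), Ms4a6c (chr19:11469366-11482192) and Ms4a6b (chr19:11516512-11531256) follow on the plus strand. Ms4a6d (chr19:11586604-11604849) and Ms4a3 (chr19:11629496-11640851) close the series on the minus strand. From Ms4a10 to Ms4a3 the annotation lists 35 genes over 678559 bases, of which 33 occur in the table under the same name and 21 were tested. Of these 21, Ms4a6c and Ms4a8a were called and both were higher, and 0 were lower. The genes around them, such as Ms4a15 near Ms4a8a and Ms4a4b and Ms4a6b on either side of Ms4a6c, did not pass.

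**Figure D2:**
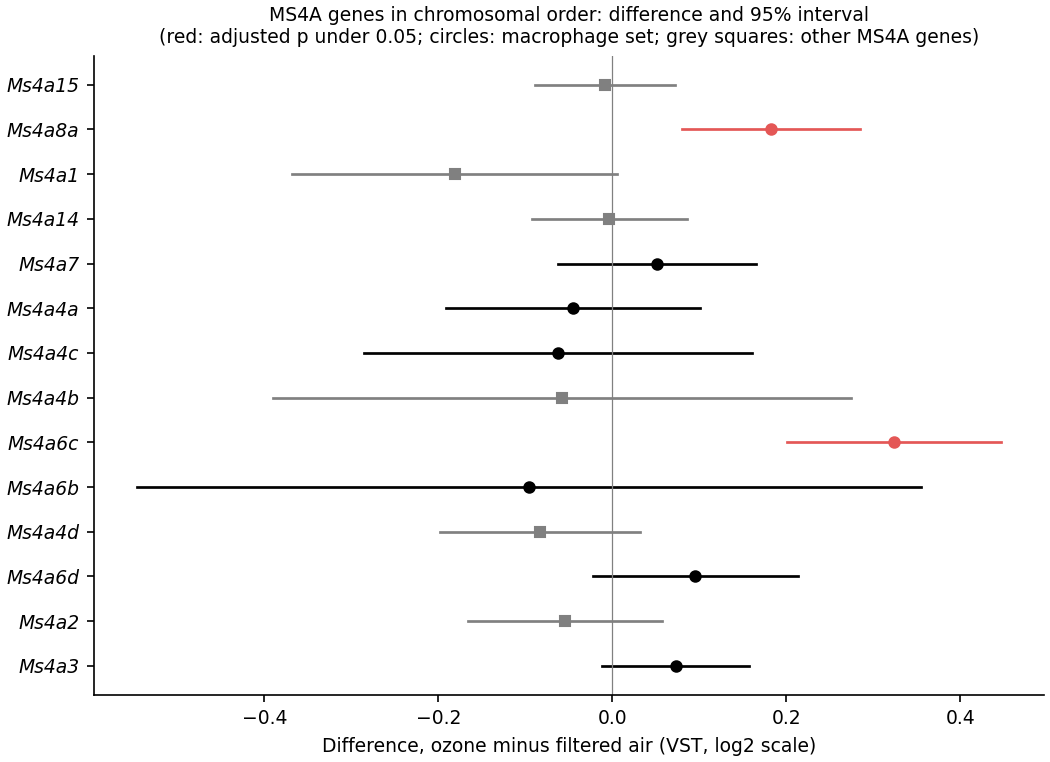
Difference between ozone and filtered air (points) with its 95% interval (lines) for the 14 tested genes named Ms4a, in chromosomal order from top to bottom. The intervals of Ms4a8a and Ms4a6c, in red, lie above 0, and those of the other 12 include 0.

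Ms4a6c, a little-studied member made by monocytes and macrophages, gave the largest difference of the set. It stood at 0.43, 0.41, 0.19, 0.28, 0.36 and 0.27 in ozone mice 1 to 6. In filtered-air mice 1 to 6 it stood at -0.028, -0.097, -0.013, 0.22, -0.042 and -0.040. Filtered-air mouse 4 was thus the only control above an ozone mouse, and that was ozone mouse 3. Ms4a6c rose by 0.32 (SE 0.057, limma adjusted p = 0.00585), to 0.32 ± 0.093 (SD, n = 6) from 0 ± 0.11. An exact permutation test over the mice, two-sided, gave p = 0.00433. Without filtered-air mouse 4 the rise was 0.37 (limma adjusted p = 0.00072), and the groups then did not overlap. Fewer cells of a type and less RNA per cell cannot be told apart in such sorted bulk samples.

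The promoters of Ms4a6c and its neighbour Ms4a6b are shown because these relatives share much of the sequence around their RefSeq starts. Both runs are RefSeq sequence of GRCm38.p6, plus strand, from 250 bases before to 50 after the start annotated in RefSeq. The first covers chr19:11469118-11469417 and the second chr19:11518309-11518608, and capitals mark the longest run of letters that they share, 48 bases. The second lies inside the GENCODE span of Ms4a6b given above, which begins at 11516512.
Ms4a6c: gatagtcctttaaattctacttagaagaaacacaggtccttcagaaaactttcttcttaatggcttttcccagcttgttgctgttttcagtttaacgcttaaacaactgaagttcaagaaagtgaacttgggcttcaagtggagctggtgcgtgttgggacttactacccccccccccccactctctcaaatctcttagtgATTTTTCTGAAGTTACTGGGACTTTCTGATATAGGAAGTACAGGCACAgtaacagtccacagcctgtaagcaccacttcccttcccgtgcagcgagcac
Ms4a6b: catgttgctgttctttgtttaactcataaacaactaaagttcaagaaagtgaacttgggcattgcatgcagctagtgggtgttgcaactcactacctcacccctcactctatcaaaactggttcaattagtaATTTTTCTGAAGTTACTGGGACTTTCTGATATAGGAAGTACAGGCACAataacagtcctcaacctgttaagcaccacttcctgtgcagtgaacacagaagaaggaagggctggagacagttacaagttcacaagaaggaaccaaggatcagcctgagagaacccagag

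A local alignment of these promoters ran over 235 columns with 82.1% identical letters, the highest score among all pairs of the 7 members that have a RefSeq promoter entry. The transcripts are also alike in places. Of the 2001 distinct runs of 50 bases in the GENCODE transcripts of Ms4a6c, 50 being the read length, 10.5% also occur in another gene, and 117 of them occur in Ms4a6b. For Ms4a6b the share was 3.57% and for Ms4a6d 2.54%. Ms4a4c shared 8.19% of its runs, mostly with Ms4a4b, and Ms4a7 shared 0.306%, while Ms4a3, Ms4a4a and Ms4a8a shared 0. How the authors assigned shared reads is not given in the sources used here, so values of the Ms4a6 and Ms4a4 subfamilies may be partly mixed. BE692007, on the other strand across Ms4a6c, had a difference of -0.13 (limma adjusted p = 0.173), opposite in sign to Ms4a6c.

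Within the Ms4a6 subfamily the centred values of the genes were compared inside each mouse, by taking their difference. This comparison was chosen after the values were seen and is given as a description, with no test. Ms4a6c exceeded Ms4a6d by 0.23 ± 0.11 (SD, n = 6) after ozone and by 0 ± 0.080 in filtered air, and 5 of 6 ozone mice lay above all controls. Against Ms4a6b the corresponding value was 0.42 ± 0.41 after ozone and 0 ± 0.41 in filtered air, with 3 of 6 ozone mice above all controls. Between Ms4a6d and Ms4a6b it was 0.19 ± 0.45 after ozone and 0 ± 0.48 in filtered air, with 0 of 6 above. The mean of 0 in filtered air is set by the centring of each gene, so these values do not rank levels. The scale compresses genes with few reads to a different extent, so these comparisons hold for the deposited scale.

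Ms4a8a, which is known to be induced in alternatively activated macrophages, rose less and with less margin. Ozone mice 1 to 6 had 0.27, 0.21, 0.098, 0.13, 0.20 and 0.19. Filtered-air mice 1 to 6 had -0.029, 0.0066, -0.10, 0.075, 0.14 and -0.089. Thus 4 of 6 ozone mice lay above all controls, and filtered-air mouse 5 lay above ozone mice 3 and 4. The difference was 0.18 (SE 0.048, limma adjusted p = 0.0464), from 0 ± 0.095 to 0.18 ± 0.061 (SD, n = 6), and the exact permutation test, two-sided, gave p = 0.00649. The size was stable at 0.16 to 0.21 when any single mouse was left out, but the call was lost in 9 of those 12 fits, with limma adjusted p-values between 0.0194 and 0.101. It was kept only without filtered-air mouse 4, filtered-air mouse 5 or ozone mouse 3.

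**Figure D3:**
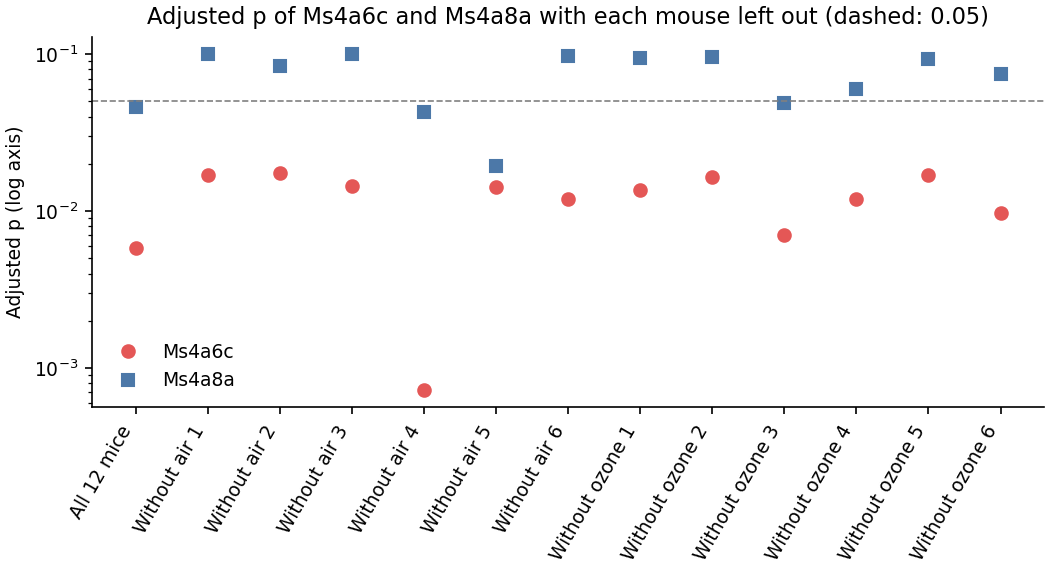
Adjusted p-values in limma (log axis) of Ms4a6c (circles) and Ms4a8a (squares) with all 12 mice and with each mouse left out in turn, with the threshold of 0.05 dashed. Ms4a6c stays between 0.00072 and 0.0175 and Ms4a8a crosses the threshold in 9 of the 12 fits.

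The promoter of Ms4a8a is shown because it belongs to a called gene and holds a match to a motif searched. It covers chr19:11081054-11081353 of GRCm38.p6 on the minus strand, and capitals mark a match to the AP-1 motif TGANTCA.
Ms4a8a: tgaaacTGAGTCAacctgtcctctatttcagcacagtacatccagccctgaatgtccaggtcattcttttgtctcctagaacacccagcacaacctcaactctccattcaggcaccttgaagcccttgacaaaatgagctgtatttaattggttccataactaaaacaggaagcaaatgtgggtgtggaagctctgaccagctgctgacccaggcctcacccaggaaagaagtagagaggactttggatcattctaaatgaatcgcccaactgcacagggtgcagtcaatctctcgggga

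On both strands of the 7 available promoters, 6 motifs were searched. TGANTCA was found in Ms4a8a and Ms4a7 and occurs in 7.81% of 32851 RefSeq promoters of this length. The NF-kappa-B motif was found in Ms4a4a, against 0.411% of all promoters, and the C/EBP motif TTGCNNCAA in Ms4a3, against 2.08%. The PU.1 motif GAGGAAGT, the interferon-stimulated response element and the E-box GTCACGTG had no match in these 7 windows, against 3.20%, 3.44% and 2.25% of all promoters.

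Ms4a6d, which is known to pair with the complement receptor VSIG4 in macrophages, did not pass. Its ozone values were 0.14, 0.13, 0.16, 0.097, 0.094 and -0.048 and its filtered-air values 0.018, 0.011, 0.021, 0.19, -0.071 and -0.16, in mice 1 to 6. Of the ozone mice 5 of 6 lay above the filtered-air mean, and 0 lay above filtered-air mouse 4. The difference was 0.095 (95% interval -0.022 to 0.21, limma adjusted p = 0.428). Without filtered-air mouse 4 it was 0.14 (limma adjusted p = 0.158), and without filtered-air mouse 6 it was 0.059 (limma adjusted p = 0.657).

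Ms4a3, the progenitor gene, was tightly spread and likewise fell short. Ozone mice 1 to 6 had 0.035, 0.034, 0.13, 0.059, 0.022 and 0.15. The controls had 0.083, -0.036, -0.030, -0.069, 0.050 and 0.0015. All 6 ozone mice were above the filtered-air mean and 2 were above every control. The difference was 0.073 (95% interval -0.012 to 0.16, limma adjusted p = 0.391). It was 0.0039 in flow-sort batch 1 and 0.14 in batch 2, and the interaction of exposure and batch had an unadjusted p of 0.0817 in limma (adjusted p = 1.00). The progenitor genes Mpo, Elane, Prtn3 and Ctsg, which encode granule proteins, did not meet the filter.

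Ms4a7, which in other tissues marks macrophages of monocyte origin, stood at 0.16, 0.14, 0.059, 0.10, -0.089 and -0.062 in ozone mice 1 to 6. In the controls it stood at 0.065, 0.068, -0.028, -0.13, -0.034 and 0.059. Ozone mice 1, 2 and 4 were above all controls and ozone mice 5 and 6 were below the filtered-air mean. The difference was 0.052 (95% interval -0.062 to 0.17, limma adjusted p = 0.708). It was 0.023 without filtered-air mouse 4 and 0.083 without ozone mouse 5.

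The remaining genes, Ms4a4a, Ms4a4c and Ms4a6b, were set apart by their spread between mice of the same group. The within-group SD was 0.13 for Ms4a4a, 0.21 for Ms4a4c and 0.43 for Ms4a6b, at the 86.8th, 97.5th and 99.9th percentiles of all genes tested. For Ms4a6b only 13 of the 19633 genes had a larger SD. The median over all genes was 0.077.

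Ms4a6b, a gene expressed in T cells as well as in myeloid cells, had ozone values of -0.31, -0.42, -0.44, -0.17, 0.52 and 0.25. Its filtered-air values were -0.48, -0.60, -0.088, 0.46, 0.35 and 0.37. Ozone mice 5 and 6 and filtered-air mice 4, 5 and 6 were high, at 0.25 or above, and the other 7 mice were at -0.088 or below. High and low mice occurred in both groups and in both flow-sort batches. The difference between the groups was -0.096 (95% interval -0.55 to 0.35, limma adjusted p = 0.883), so a change of either sign within that interval cannot be seen here.

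The 5 mice with the highest Ms4a6b were also the 5 with the highest mean of 6 T cell markers (Cd3d, Cd3e, Cd3g, Trac, Cd8a and Cd4). That mean was 0.27 in ozone mouse 5, 0.31 in ozone mouse 6, and 0.14, 0.31 and 0.15 in filtered-air mice 4, 5 and 6. In the other 7 mice it lay between -0.29 in filtered-air mouse 1 and 0.030 in ozone mouse 4. The same 5 mice with high Ms4a6b also had the 5 highest means of the listed dendritic cell genes. Those means ran from 0.0021 in filtered-air mouse 6 to 0.17 in filtered-air mouse 5. Ms4a4b, the T cell member of the family, ran from -0.44 in filtered-air mouse 2 to 0.39 in filtered-air mouse 5. The mean of all 7 listed T cell markers ranged from -0.22 to 0.30 after ozone and from -0.30 to 0.32 in filtered air, and 0 of 7 passed in limma, also 0 at an unadjusted p under 0.05, which 16.7% of all genes tested had. All 7 were above the shared minimum in all 12 mice, and their part in the Ms4a6b values was not tested. With the mean of all 7 as a covariate, an alternative chosen after seeing the data, Ms4a6c rose by 0.32 and Ms4a8a by 0.18 and both kept their call, with limma adjusted p-values of 0.00653 and 0.0450. The 7 T cell markers had a median difference of -0.012 between the groups, so this covariate could hardly move either value.

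**Figure D4:**
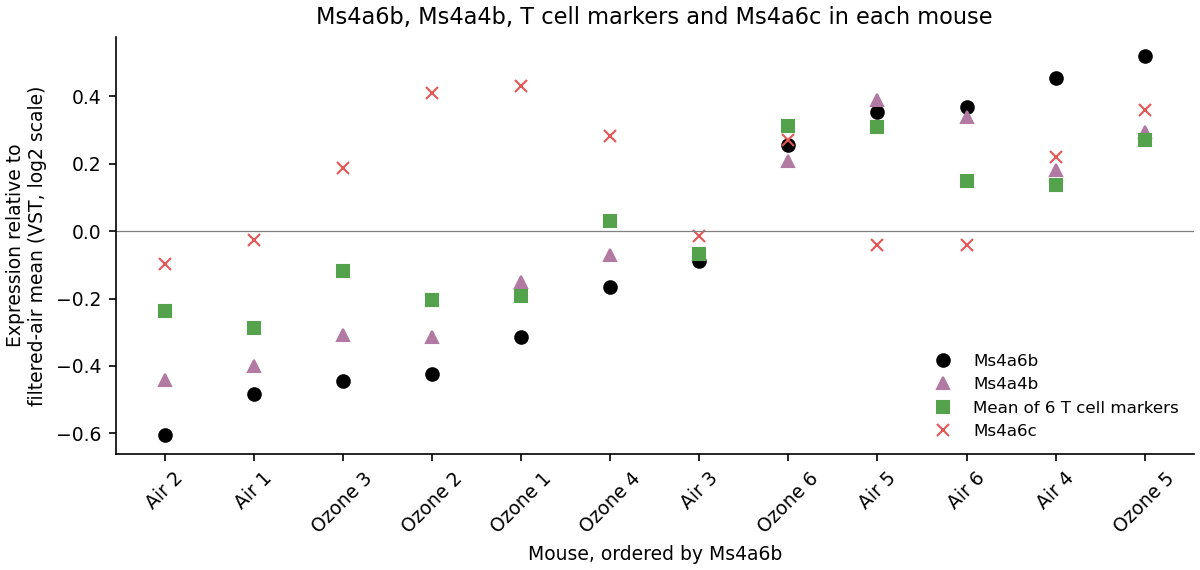
Values of Ms4a6b, Ms4a4b, Ms4a6c and the mean of 6 T cell markers in each of the 12 mice, on the log2 scale relative to the filtered-air mean, with mice ordered by Ms4a6b. Ms4a6b, Ms4a4b and the T cell markers are high in the same 5 mice of both groups, and Ms4a6c does not follow that order.

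Ms4a4a, the Dectin-1 partner, stood at -0.034, -0.11, -0.077, -0.042, 0.044 and -0.054 after ozone. In filtered air it stood at -0.21, -0.14, -0.037, 0.20, 0.22 and -0.032, so that the ozone mice all lay inside the range of the controls. The difference was -0.045 (95% interval -0.19 to 0.10, limma adjusted p = 0.815). The SD was 0.051 after ozone and 0.17 in filtered air.

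Ms4a4c, which is expressed in monocytes and inducible by interferon, had -0.32, 0.10, -0.046, 0.055, -0.14 and -0.032 after ozone. Its filtered-air values were -0.18, -0.32, -0.15, 0.33, 0.12 and 0.20. The difference was -0.062 (95% interval -0.29 to 0.16, limma adjusted p = 0.837), with a sign that depended on the batch, 0.076 in batch 1 and -0.20 in batch 2 (interaction, unadjusted p = 0.198 in limma). Filtered-air mouse 4 gave the highest value of all 12 mice, and it also had the highest mean of 10 monocyte markers, 0.34. The monocyte mean ranged from -0.20 to 0.070 after ozone and from -0.19 to 0.34 in filtered air, with all 10 markers retained, 0 of 10 called in limma (1 at an unadjusted p under 0.05) and a median difference of -0.065, which ran from -0.11 (without ozone mouse 5) to -0.029 (without filtered-air mouse 4). Its part in these values was not tested. With the monocyte mean as a covariate, also chosen after seeing the data, Ms4a6c and Ms4a8a kept their calls at 0.35 and 0.19 (limma adjusted p = 0.00353 and 0.0445). In that fit Ms4a4c differed by -0.0020, and Ms4a4a and Ms4a6b changed sign to 0.0038 and 0.057, all without passing. Without filtered-air mouse 4 the differences were -0.0015 in Ms4a4a, 0.011 in Ms4a4c and 0.0055 in Ms4a6b.

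Of 15 further genes of the family, which include the relatives Tmem176a and Tmem176b, 8 were tested and 0 passed in limma, also 0 at an unadjusted p under 0.05, with a median difference of -0.056. With single mice left out that median ran from -0.087, when filtered-air mouse 1 was dropped, to -0.0033, when ozone mouse 2 was dropped, and it was 0.0023 in flow-sort batch 2 alone. Another 6, among them Ms4a5 and Ms4a10, had the same value in all mice, and Ms4a20 rose above the shared minimum in 1 mouse. Ms4a1, which encodes CD20, had the most negative difference, -0.18 (limma adjusted p = 0.317), which was -0.088 (limma adjusted p = 0.453) without filtered-air mouse 4. Its ozone values lay between -0.24 and -0.023 and its filtered-air values between -0.20 and 0.42, the highest in filtered-air mouse 4. The 7 listed B cell markers had a median difference of -0.20, with 0 called in limma. There were 4 at an unadjusted p under 0.05, in both directions, such as Cd79a (-0.29), Cd79b (-0.19) and Cd22 (0.13). The mean of the 7 ranged from -0.34 to -0.037 after ozone and from -0.21 to 0.33 in filtered air. Without filtered-air mouse 4 the median was -0.12 with 0 called, and without filtered-air mouse 2 it was -0.27 with 2 of the 7 called, the ends of the range with single mice left out. Ms4a4b differed by -0.057, Ms4a4d by -0.083, Ms4a14 by -0.0033 and Ms4a15 by -0.0083. Ms4a2, above the shared minimum in 6 mice, differed by -0.055, and the basophil and mast cell genes Cpa3, Mcpt8 and Fcer1a did not meet the filter. Tmem176a and Tmem176b, which encode ion channels of dendritic cells and macrophages, differed by -0.070 and 0.0057.

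Genes of proteins that bind MS4A proteins or signal with them were taken as a list of 17, all tested. The list was chosen with earlier results of these data known. Of these, 4 rose, Trem2, Cd81, Cdkn3 and Cdk2, 13 did not pass and 0 fell, against 2.41% higher and 1.84% lower over all genes tested. An unadjusted p under 0.05 was found in 6 of the 17, against 16.7% of all genes. The median difference was 0.016, and it ran from 0.011 to 0.057 with single mice left out. Trem2 encodes a lipid receptor of macrophages whose shed form in humans varies with the MS4A locus. It ranged from 0.44 to 0.87 after ozone and from -0.16 to 0.18 in filtered air, with no overlap, and rose by 0.60 (SE 0.075, limma adjusted p = 0.000811). Tyrobp, which encodes its signalling adaptor, differed by 0.012 and Adam10 and Adam17, which encode proteases that shed it, by 0.14 and 0.12, both with a limma adjusted p of 0.111. In Adam17 the groups did not overlap, as in 3.53% of all genes, and in Adam10 5 of 6 ozone mice lay above all controls.

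Cd81, which encodes a tetraspanin, ranged from 0.20 to 0.42 after ozone and from -0.065 to 0.087 in filtered air, and rose by 0.30 (SE 0.047, limma adjusted p = 0.00291). Cdk2 rose by 0.19 (SE 0.044, adjusted p = 0.0212) and Cdkn3 by 0.27 (SE 0.066, adjusted p = 0.0319) in the same limma fit, while their partner Ms4a3 did not pass. Both belong to the cell cycle machinery. The groups were apart in Cdk2 and overlapped in Cdkn3, where 4 of 6 ozone mice lay above all controls. Cdk2 missed the threshold when filtered-air mouse 1 or either of ozone mice 2 and 3 was left out (limma adjusted p up to 0.0533). That of Cdkn3 was lost in 8 of the 12 fits that left out a mouse (limma adjusted p up to 0.0784) and kept only without filtered-air mouse 5 or 6 or ozone mouse 4 or 6. Of the Dectin-1 route, Clec7a (-0.0090), Syk (0.032), Card9 (0.0059) and Plcg2 (-0.037) had differences near 0 and did not pass. Vsig4, the partner of Ms4a6d, differed by 0.016, and Fcer1g, which encodes a signalling chain shared by Fc receptors, by 0.087.

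**Figure D5:**
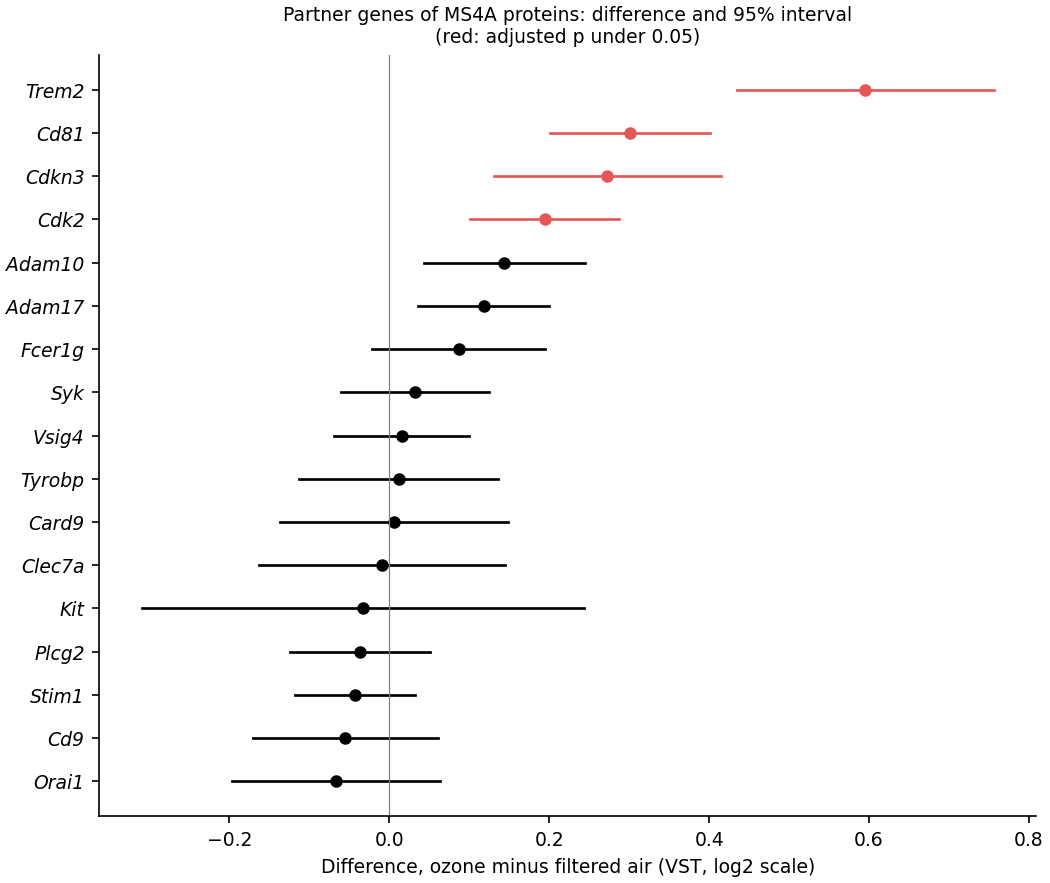
Difference between ozone and filtered air (points) with its 95% interval (lines) for the 17 partner genes, from highest to lowest. Trem2 is the highest at 0.60, and the 4 genes in red passed the test.

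Responses that are known to raise MS4A genes were described in the same fit. Counts at an unadjusted p under 0.05 are to be read against the 16.7% of all genes tested that had it. Of 10 genes of the IL-4 and glucocorticoid response, 0 passed in limma (2 at an unadjusted p under 0.05), with a median difference of -0.020, which ran from -0.048 (without filtered-air mouse 2) to 0.022 (without filtered-air mouse 4) with single mice left out. The 2 were Arg1 (0.16) and Il10 (0.11), and 5 of the 10 differences were above 0. Retnla differed by 0.18, Mrc1 by -0.062, Tsc22d3 by -0.091 and Fkbp5 by -0.13. Of 16 interferon-stimulated genes 0 passed (1 unadjusted), with a median of 0.021, which ran from -0.046 (without ozone mouse 6) to 0.060 (without filtered-air mouse 5) with single mice left out. Among markers of other macrophages and cells, 0 of 11 interstitial macrophage genes passed (3 unadjusted, median difference 0.033). Without filtered-air mouse 4, 1 of the 11 passed. With single mice left out the median ran from -0.025 (without filtered-air mouse 1) to 0.069 (without filtered-air mouse 5), and over other filters, scalings, covariates and single batches the median ran from -0.081 to 0.14 with 0 to 2 called. The mean of the interstitial genes ranged from -0.11 to 0.23 after ozone and from -0.29 to 0.25 in filtered air. Of the 15 resident alveolar macrophage genes 4 passed, against 4.25% of all genes tested, a number that ran from 1 to 5 when single mice were left out and was 0 after quantile normalization and in either batch alone. Their median difference was -0.0045, which ran from -0.026 (without filtered-air mouse 3) to 0.021 (without filtered-air mouse 2), and 7 had an unadjusted p under 0.05. Car4 rose by 0.32 (limma adjusted p = 0.046) and Chil3 by 0.25 (adjusted p = 0.032). Krt79 fell by 0.35 (adjusted p = 0.0177) and Ear1 fell by 0.28 (adjusted p = 0.0358) in the same limma fit. Cxcr2 was the called gene of 7 neutrophil genes tested and rose by 0.79 (limma adjusted p = 0.000451). With a variance trend its limma adjusted p was 0.159, and in the single batches it was 0.0502 and 0.0740. Of the other neutrophil genes, which did not pass, Csf3r (-0.27), S100a9 (-0.015) and Retnlg (-0.018) had differences below 0 and S100a8 (0.085), Ltf (0.15) and Mmp8 (0.17) above. The median of the 7 was 0.085, it was 0.041 without filtered-air mouse 6, and without filtered-air mouse 4 it was 0.15 with 2 called, Cxcr2 higher and Csf3r lower, and 4 at an unadjusted p under 0.05. Ly6g, Camp and Ngp did not meet the filter. Epcam was the called gene of 8 epithelial genes and fell by 0.55 (limma adjusted p = 0.0062), and 0 of the 8 were called after quantile normalization and in either batch alone. The others did not pass, among them Foxj1 (0.16), Cdh1 (0.067) and Sftpc (0.030) above 0 and Scgb1a1 (-0.16), Ager (-0.13), Hopx (-0.11) and Sftpb (-0.021) below. The epithelial median was -0.065, with 2 of 8 at an unadjusted p under 0.05, and ran from -0.11 (without filtered-air mouse 6) to 0.017 (without filtered-air mouse 4). Of 7 dendritic cell genes, 4 progenitor genes and 3 mast cell and basophil genes tested, 0 passed in limma, and 2, 0 and 0 had an unadjusted p under 0.05. The part of these other cells in the MS4A values was not tested.

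Likeness between genes was taken as Pearson's r over the 12 mice after the mean of each group had been subtracted, and is given as a description, since all genes share the same libraries. For Ms4a6c the closest genes were Gm15429 (r = 0.918), Iqck (0.916) and Abhd11 (0.909). For Ms4a8a they were Nucb2 (0.926), Gm31814 (0.924) and 4833419F23Rik (0.891). None of these 6 was called after ozone, with differences between -0.031 and 0.073. The closest genes of Ms4a6b, chosen for display after its values were seen, were Prkcq (0.981), Bcl2 (0.976) and Ccr7 (0.976). Those of Ms4a4a, chosen in the same way, were F13a1 (0.965), Tbx21 (0.957) and Gm6493 (0.926). F13a1 encodes a subunit of coagulation factor XIII and was on the monocyte list, and Prkcq encodes a kinase of T cell receptor signalling. Ccr7 was on the dendritic cell list. Among the members, Ms4a6c had an r of -0.631 with Ms4a3, 0.551 with Ms4a6d, 0.507 with Ms4a8a, 0.446 with Ms4a4a and 0.331 with Ms4a6b. Ms4a6b had an r of 0.764 with Ms4a4a and -0.762 with Ms4a7.

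The rises were of like size in both flow-sort batches. Ms4a6c rose by 0.38 in batch 1 and differed by 0.27 in batch 2, and Ms4a8a differed by 0.18 and 0.19. In limma's test of the interaction between exposure and batch, 0 of the 19633 genes had an adjusted p under 0.05, with 510 genes, 2.60%, at an unadjusted p under 0.05. The unadjusted p was 0.357 for Ms4a6c and 0.924 for Ms4a8a. With 3 mice against 3, batch 1 alone called Ms4a6c and batch 2 alone called 0 genes of the whole table in limma, with 1800 at an unadjusted p under 0.05.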

How the data were processed

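RNA of flow-sorted alveolar macrophages was sequenced as paired 50-base reads after a stranded mRNA library preparation, per the labels' protocols. The authors deposited 1 table of log2-scale values, variance-stabilized and batch-corrected per the file's name. The submitters' processing notes name cutadapt, STAR 2.7.7a, Salmon 1.5.2, DESeq2 1.26.0, limma 3.42.2, R 3.6.0 and mm10, with no role given. The filtered-air mean and the difference between the flow-sort batches are 0 in every gene, within 1e-06.

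Genes with at least 6 of 12 mice above the lowest value shared within a batch were kept (19633 of 25444 that were not constant, with values equal within 1e-06 called shared). They were fitted with limma 3.58.1 in R 4.3.3 with batch as a covariate and no variance trend, and p-values were adjusted over all genes by the Benjamini-Hochberg method at 0.05. The code was tested on simulated data. Exact permutation tests used all 924 assignments of the mice, without keeping the flow-sort batches balanced. Promoters were aligned with scores of 2 for a match, -1 for a mismatch, -3 to open and -1 to extend a gap.

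Named genes were the 8 members, the other MS4A genes tested, called partner genes and the partner with the smallest p, up to 3 called genes by p in each further list (a further called gene is named so that all 4 resident genes appear), defining markers that were not kept, and the 3 most similar genes of each called member. Further partner and list genes are given as values, and the subfamily comparison and further similar genes were added after values were seen. The members and lists were chosen with earlier results of these data known. Alternatives covered filters, covariates, moderation, scaling, single batches, the replicate number and each mouse left out. Protein sequences were not used here.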

Additional observations from a re-analysis of the deposited data

Results flagged for a closer look

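Among 32 sets of 6 values, 1 per MS4A gene and group, 4 held a mouse set off from the rest, where chance gives about 1.6. Ms4a6c stood at 0.22 in filtered-air mouse 4, and the gap to the next mouse was 0.736 of the group's range. Ms4a6d stood at -0.048 in ozone mouse 6, below the other ozone mice (0.683). Ms4a1 stood at -0.023 in ozone mouse 4, above the other ozone mice (0.638). Ms4a15 stood at 0.096 in ozone mouse 3, the highest of its group (0.769).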

How the results depend on the processing

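The number of members called was 1 in place of 2 without the filter, with a variance trend, after quantile normalization, with the RNA integrity number in the fit and in batch 1 alone, and it was 0 in batch 2 alone. Ms4a8a then differed by 0.18 (limma adjusted p = 0.0511), 0.18 (0.0574), 0.16 (0.187), 0.18 (0.0621), 0.18 (0.377) and 0.19 (0.445), in that order. Ms4a6c missed the threshold in batch 2 alone, at 0.27 (limma adjusted p = 0.442), and kept its call under the other alternatives tried. The number of genes called over the whole table fell from 834 to 171 after quantile normalization, 90 in batch 1 and 0 in batch 2. That of partner genes fell from 4 to 2, 0 and 0, and their median difference was 0.073 in batch 1. Signs turned for Ms4a4c (0.076) and Ms4a6b (0.050) in batch 1, and for Ms4a4a (0.0038) and Ms4a6b (0.057) with the monocyte mean as a covariate. The cause of these changes was not tested, except that a single batch has fewer mice. The median difference over all genes was -0.0033 in the main fit and -0.0013 after quantile normalization, the only other scaling tried.

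With a mouse left out in turn, between 538 genes, without filtered-air mouse 1, and 751 were called, with 1 to 2 members and 2 to 4 partner genes. The partner number was 2 when filtered-air mouse 1 or either of ozone mice 2 and 3 was left out, and the partner median ran from 0.011 to 0.057, the latter without ozone mouse 1. Ms4a8a ran from 0.16 to 0.21 and Ms4a6c from 0.30 to 0.37. Ms4a4a ran from -0.092 to 0.0033 (without filtered-air mouse 5), Ms4a4c from -0.13 to 0.011 and Ms4a6b from -0.23 to 0.0055 (both without filtered-air mouse 4).

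Mice with the same replicate number are different animals, and their deviations correlated by -0.0026 to 0.28, with 4 of 6 pairs over 0.1 and 6 of 12 mice closest to their own number. With the replicate number as a block 853 genes and 2 members were called, Ms4a8a at 0.18 (limma adjusted p = 0.0473), and the interaction with batch called 1 gene in place of 0. Depth is unknown, so small differences may be out of reach in weakly expressed members.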
